A study of Mus musculus with 24 samples.

Results

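Acod1, Ass1, Asl, Arg1, Nos2, Slc7a1, Slc7a2, Odc1, Srm and Sat1 are 10 genes of itaconate, arginine and polyamine metabolism, taken by name from the 35519 genes to which reads of 24 mouse microglia libraries were assigned. They were chosen as a pathway with earlier results known, and so count as selected on their reads in phagocytosis against control libraries. Hence every contrast of those 2 states is given for them as a description, with no p-value. How many of them passed the test over all genes is given only as a count, from which nothing is read. Microglia are the resident macrophages of the brain. They came from whole brain of C57BL/6 mice, sorted for CD11b and Fcrls and against Ly6C, and 1000 cells were lysed per Smart-Seq2 library, a full-length method without molecular identifiers or strand.

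The groups were female NL4-/- phagocytosis, female WT phagocytosis, male NL4-/- phagocytosis and male WT phagocytosis, with 4 libraries each, and the controls of the same sex and genotype, with 2 libraries each. NL4-/- mice lack neuroligin-4, a synaptic adhesion protein, and WT is wild type. The labels give neither the age of the mice nor what the phagocytosis groups took up, nor whether the uptake took place in the animal or in culture. Libraries are called biological replicates in the series' design text, but nothing states that they came from separate mice, so the p-values measure the spread between these libraries. No transcript of the knocked-out gene is in the values used here, and the knockout was therefore not analysed here.

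Itaconate is made in mitochondria from aconitate, an intermediate of the citric acid cycle, by the enzyme that Acod1 encodes, and it is a hallmark of activated macrophages. Arginine enters through the cationic amino acid transporters Slc7a1 and Slc7a2, is rebuilt from citrulline by Ass1 and Asl, and is used by Nos2 to make nitric oxide or by Arg1 to make ornithine. Odc1 turns ornithine into putrescine, Srm turns putrescine into spermidine, and Sat1 acetylates spermidine and spermine so that they can be broken down or exported. In macrophages Nos2 and Acod1 are classical activation genes and Arg1 is a gene of alternative activation.

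Libraries held 421107 to 1013797 reads in expected counts, so that 1 read stood for 1.002 to 2.427 CPM (reads scaled to a common library total by the TMM method). Major satellite transcripts took 1.52 to 16.3% of the reads in phagocytosis libraries and 4.05 to 23.2% in control libraries, and 3 controls were above 20% (female NL4-/- 1, male WT 2 and male NL4-/- 1). All 12 microglial markers passed the filter. Of them 7 fell in phagocytosis libraries, where 5.18% of all genes tested fell, and 0 rose. Their summed level was 18763 to 45392 CPM in phagocytosis libraries and 33470 to 47887 CPM in controls, which places microglia in all 24 libraries. Summed markers of border-associated macrophages were 1336 to 2295 CPM in phagocytosis libraries and 802 to 1646 CPM in controls (12 of 12 genes with a higher mean in phagocytosis). Summed neuron markers were 12.6 to 109 CPM in phagocytosis libraries and 5.91 to 13.4 CPM in controls (10 of 12 higher). Oligodendrocyte markers came to 171 to 371 and 123 to 193 CPM in that order (7 of 12), and endothelial markers to 501 to 721 and 308 to 606 CPM (6 of 12). Of the endothelial genes only Cldn5 had 0 reads in every library. Neutrophil markers came to 321 to 700 CPM in phagocytosis libraries and 427 to 705 CPM in controls (7 of 12 higher in phagocytosis). Astrocyte markers came to 78.2 to 150 and 57.2 to 141 CPM in that order (11 of 12). The part of these cell types in the state differences below was not tested. In such bulk libraries, fewer cells that use a gene and less RNA per cell cannot be told apart.

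Upstream sequences were available for 5 of the 10 genes and are shown for the pair with the widest state difference and for Slc7a1 and Odc1, a transporter and an enzyme of the same route. They are RefSeq sequences on GRCm38.p6, given 5′ to 3′ along the gene and ending just before its annotated start. Capitals mark matches to any of 11 motifs searched on both strands.
Acod1 (chr14:103046762-103046976, plus strand): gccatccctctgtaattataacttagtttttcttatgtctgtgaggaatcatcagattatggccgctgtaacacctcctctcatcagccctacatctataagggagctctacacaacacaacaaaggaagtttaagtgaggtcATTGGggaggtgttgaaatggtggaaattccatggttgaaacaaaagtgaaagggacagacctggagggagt
Ass1 (chr2:31470020-31470206, plus strand): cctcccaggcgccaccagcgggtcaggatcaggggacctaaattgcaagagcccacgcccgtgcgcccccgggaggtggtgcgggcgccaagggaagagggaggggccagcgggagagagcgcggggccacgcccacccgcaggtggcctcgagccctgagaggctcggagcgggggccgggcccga
Slc7a1 (chr5:148399905-148400154, minus strand): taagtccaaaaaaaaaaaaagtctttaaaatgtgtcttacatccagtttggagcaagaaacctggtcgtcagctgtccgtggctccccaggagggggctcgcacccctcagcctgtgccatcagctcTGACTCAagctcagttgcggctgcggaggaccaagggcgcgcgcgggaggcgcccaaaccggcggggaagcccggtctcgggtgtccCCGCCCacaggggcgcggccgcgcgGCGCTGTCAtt
Odc1 (chr12:17544623-17544793, plus strand): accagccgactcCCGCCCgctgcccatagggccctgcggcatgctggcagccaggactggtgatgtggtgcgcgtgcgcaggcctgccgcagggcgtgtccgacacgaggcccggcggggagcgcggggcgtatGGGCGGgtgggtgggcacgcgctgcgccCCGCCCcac

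The motifs were AP-1 (TGANTCA), the antioxidant response element (TGACNNNGC), NF-kB (GGG, 2 bases of any kind, TTTCC), the interferon-stimulated response element (GAAA, 2 bases of any kind, GAAA), STAT (TTCNNNGAA), C/EBP (TTGCGCAA), the cAMP response element (TGACGTCA), the E-box (CACGTG), the GC box (GGGCGG), the CCAAT box (CCAAT) and the TATA box (TATAAA). The 215 bases before Acod1 held 1 CCAAT box, which 30.4% of 32851 RefSeq promoters hold in a window of that length, and the 187 bases before Ass1 held no match. The 250 bases before Slc7a1 held 1 AP-1 match (6.75% of promoters), 1 antioxidant response element (10.2%) and 1 GC box (32.7%). The 171 bases before Odc1 held 3 GC boxes, and 19.6% of promoters hold at least 1 in such a window. No matches overlapped each other. These are letters in a window, and a window without a match says nothing of the factor.

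Over all libraries the widest difference between the states was in Acod1, a gene of 1 annotated transcript on chromosome 14. It had 6.96, 50.04 and 179 CPM as the lowest, median and highest of the 16 phagocytosis libraries, against 0, 0.581 and 4.27 CPM in the 8 controls. Every phagocytosis library lay above every control library, and the states were without overlap, in either direction, for 0.867% of the 9803 genes tested. Acod1 had 566 reads in phagocytosis libraries together and 6 in controls, a ratio of pooled CPM of 40.6 (exact 95% interval 18.5 to 111). Such intervals cover counting error only, since amplified reads without molecular identifiers are not independent molecules. All 4 NL4-/- control libraries had 0 Acod1 reads, so the ratio was at least 12.1-fold in female NL4-/- and at least 13.8-fold in male NL4-/- mice, taken against a floor of 3 reads over the group. In WT mice the ratio was 21.8 (7.27 to 108) in females and 29.9 (10.1 to 146) in males. Leaving out 1 library at a time moved the ratio over all libraries between 33.3 and 55.0, and it was 56.1 with phagocytosis libraries numbered 1 and 2 only and 25.8 with those numbered 3 and 4 only.

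The phagocytosis libraries spread widely for Acod1. The mean was 53.4 ± 45.7 CPM (SD, n = 16), and the lowest library was female NL4-/- 3 while the highest was male WT 2. In female NL4-/- phagocytosis libraries it had 71.9, 50.8, 6.96 and 13.04 CPM, against 17.0, 49.2, 62.1 and 43.3 CPM in female WT. In male NL4-/- it had 129, 32.9, 7.77 and 53.4 CPM, against 51.8, 179, 14.9 and 72.3 CPM in male WT. The genotypes overlapped in both sexes.

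Over the 16 phagocytosis libraries the genes whose log2 CPM followed Acod1 most closely were Rtp4 (Pearson r = 0.828), Psme1 (0.807), Bcl6 (0.795), Oasl2 (0.762) and Irf7 (0.759), out of 8383 genes compared. Rtp4, Oasl2 and Irf7 are interferon-stimulated genes, Psme1 encodes a proteasome activator that interferon induces, and Bcl6 is a transcriptional repressor. These values are a description, since the 5 were picked as the highest.

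Ass1, argininosuccinate synthase, had the other separation of the 2 states. It had 5.93, 57.3 and 128 CPM as lowest, median and highest in phagocytosis libraries, against 0, 1.44 and 5.81 CPM in controls, again with no overlap. The lowest phagocytosis library was female NL4-/- 4, with 5 reads, next to the highest control, female WT 1, also with 5 reads. Ass1 was higher by 4.57 ± 0.60 (log2, SE), and the ratio of pooled CPM was 23.2 (95% interval 13.2 to 45.2), an interval that overlaps that of Acod1. In female WT mice the ratio was 24.6 for Ass1, above the 21.8 of Acod1. By group the log2 difference was 4.79 ± 1.51 (female NL4-/-), 4.60 ± 0.96 (female WT), 4.36 ± 1.26 (male NL4-/-) and 4.54 ± 1.11 (male WT). It was 5.54 without male NL4-/- control 1.

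Asl, argininosuccinate lyase, takes the step after Ass1. It had 23.98, 51.3 and 71.1 CPM as lowest, median and highest in phagocytosis libraries, against 36.9, 48.7 and 81.5 CPM in controls. The states overlapped, and the log2 difference was -0.08 ± 0.19.

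**Figure D1:**
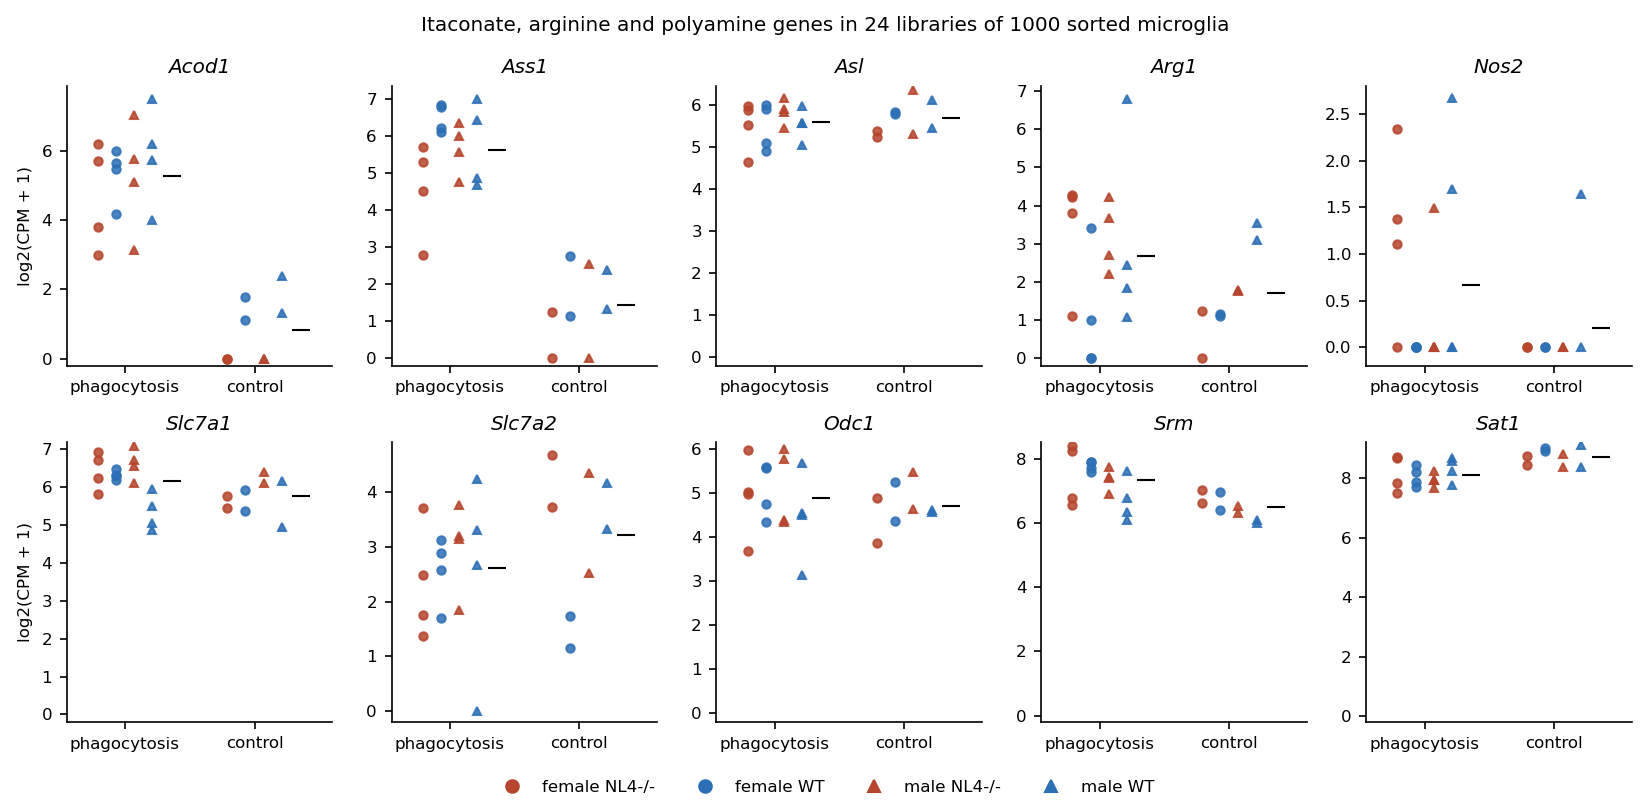
CPM of the 10 genes in each of the 24 libraries, on a log2(CPM + 1) axis, with phagocytosis left of control in each panel. Each point is a library, coloured by genotype and shaped by sex, and the black bar is the mean of the log2 values. Acod1 and Ass1 separate the states completely, Srm and Sat1 lie mostly apart in opposite directions, and Asl, Slc7a2 and Odc1 overlap.

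The 2 genes that compete for arginine were both near the limit of detection. Nos2, inducible nitric oxide synthase, had 11 reads in 6 of 16 phagocytosis libraries together and 1 read in the 8 controls, a ratio of pooled CPM of 4.74 (95% interval 0.688 to 204), and it did not pass the filter on low counts. Arg1, arginase 1, had 151 reads in phagocytosis libraries and 15 in controls, a ratio of 4.33 (2.55 to 7.94). Of the 151 reads, 82 came from male WT phagocytosis 2.

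Arg1 had 0, 4.98 and 110 CPM as lowest, median and highest in phagocytosis libraries, against 0, 1.88 and 10.7 CPM in controls, and 6 phagocytosis libraries lay above all controls. The log2 difference was 2.05 ± 1.01, and 1.22 without male WT phagocytosis 2. That library also had the highest summed level of 13 monocyte markers other than Arg1, at 286 CPM, where the 16 phagocytosis libraries had a median of 115 and the 8 controls ran from 30.8 to 93.6 CPM. It had 13 reads of Ly6c2, 22 of F10, 30 of Hp, 46 of Plac8 and 11 of Chil3, where all 8 controls together had 5 reads of Chil3. In CPM, 5 of the 13 markers were at their highest in this library. Others were not: it had 7 reads of Ccr2 and 33 of Fn1. Female WT phagocytosis 1 had 8 reads of Ccr2, male WT phagocytosis 1 had 129 of Fn1, and female WT phagocytosis 3 had 47 of Plac8. Female NL4-/- phagocytosis 4 had 11 Arg1 reads with 46.0 CPM of markers. Of those 13 markers, 12 had a higher mean in phagocytosis libraries, and their part in the Arg1 values was not tested. The cells had been sorted against Ly6C, and which cells that gate left in the libraries was not tested.

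**Figure D2:**
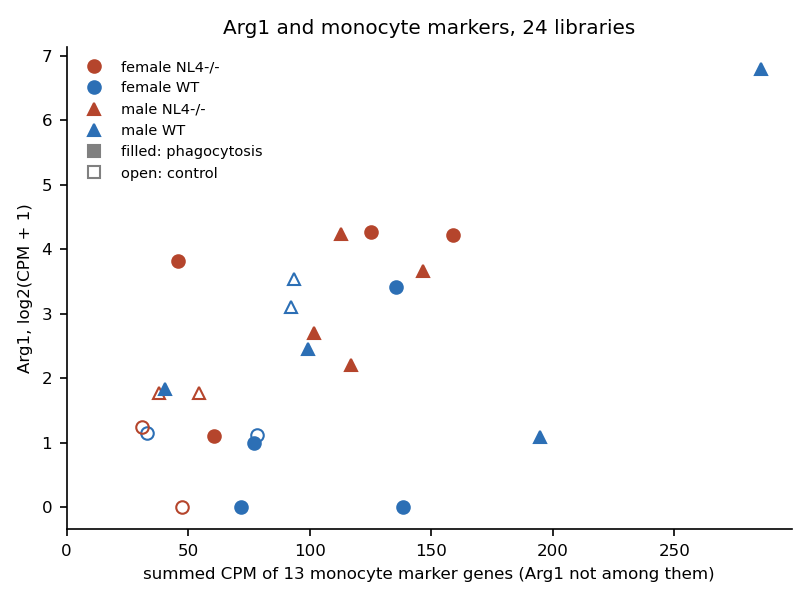
Arg1 on a log2(CPM + 1) axis against the summed CPM of 13 monocyte marker genes in the 24 libraries, filled for phagocytosis and open for control. Male WT phagocytosis 2, with 110 CPM of Arg1 and 286 CPM of markers, stands at the upper right, apart from the other libraries.

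Of the arginine transporters, Slc7a1 had 28.2, 76.3 and 134 CPM as lowest, median and highest in phagocytosis libraries, against 29.9, 56.8 and 83.9 CPM in controls. The states overlapped, 6 phagocytosis libraries lay above all controls and 1 below, and the log2 difference was 0.40 ± 0.18. By group it was 0.86 ± 0.36 (female NL4-/-), 0.65 ± 0.35 (female WT), 0.40 ± 0.35 (male NL4-/-) and -0.31 ± 0.36 (male WT), so male WT had the opposite sign. In TPM, which divide by transcript length, Slc7a1 had 23.3 ± 9.82 (SD, n = 16) in phagocytosis libraries and 9.13 ± 4.11 in controls (SD, n = 8), a wider ratio than in CPM. With length-scaled counts the log2 difference was 0.77. Slc7a2 had at most 16 reads in a library, and had 6.62 ± 4.75 CPM in phagocytosis libraries and 11.4 ± 8.53 CPM in controls. Its log2 difference was -1.86 ± 0.91 (female NL4-/-), 1.52 ± 1.21 (female WT), -0.64 ± 0.96 (male NL4-/-) and -0.63 ± 0.90 (male WT). An antisense lincRNA overlaps Slc7a2, and without strand its reads cannot be told apart from those of the gene.

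The polyamine enzymes had state differences of both signs. Srm, spermidine synthase, had 67.1, 184 and 339 CPM as lowest, median and highest in phagocytosis libraries, against 63.6, 87.8 and 130 CPM in controls. Of the 16 phagocytosis libraries, 10 lay above all controls, and the log2 difference was 0.93 ± 0.24. Odc1, ornithine decarboxylase, had 7.74, 28.3 and 63.4 CPM in phagocytosis libraries, against 13.5, 23.7 and 43.7 CPM in controls, with 6 phagocytosis libraries above all controls, 2 below, and a log2 difference of 0.31 ± 0.33. A small nucleolar RNA gene lies within Odc1, and reads of the 2 cannot be told apart where they overlap. Sat1, the catabolic acetyltransferase, had the opposite sign. It had 179, 268 and 416 CPM in phagocytosis libraries, against 328, 441 and 559 CPM in controls, and 11 phagocytosis libraries lay below all controls. Its log2 difference was -0.57 ± 0.15.

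Of all genes tested, 1332 of 9803 genes (13.6%) differed between the states by edgeR's quasi-likelihood test, 824 higher in phagocytosis (8.41%) and 508 lower (5.18%), and 781 without female WT control 2. Of the 10 genes described here, 9 passed the filter on low counts. Among them 3 were called higher (Acod1, Ass1 and Srm) and 1 lower (Sat1), a count that the choice of the genes used and from which nothing is read. Leaving out the 3 controls above 20% satellite reads left 1 control library each in female NL4-/-, male WT and male NL4-/-. In that fit the log2 difference was 0.91 for Srm and -0.35 for Sat1. Its calls and p-values, given below, rest on fewer controls, and the part of satellite reads in them was not tested. With length-scaled counts the difference of Sat1 was -0.44.

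The phagocytosis libraries numbered 1 and 2 differed from those numbered 3 and 4 for several of these genes, and the labels do not say what the numbers mean. Acod1 had 72.6 ± 54.1 CPM in libraries numbered 1 and 2, and 34.2 ± 26.6 CPM in those numbered 3 and 4 (SD, n = 8 each). Odc1 had 44.4 ± 16.3 CPM in libraries numbered 1 and 2, and 22.3 ± 12.1 CPM in those numbered 3 and 4. Srm had 218 ± 79.9 and 140 ± 60.2 CPM in the same 2 sets. Against the controls, the log2 difference of Odc1 was 0.75 with the first set alone and -0.30 with the other alone, so its direction depends on the set. For Srm it was 1.24 and 0.54, for Slc7a1 0.60 and 0.20, for Sat1 -0.68 and -0.47, and for Ass1 4.65 and 4.43.

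In TPM, the scale on which genes can be set side by side, Sat1 was highest at 380 ± 136 in phagocytosis libraries and 394 ± 114 in controls (SD, n = 16 and 8). Srm followed with 127 ± 55.9 and 55.2 ± 24.6 TPM in the same order. Asl had 31.4 ± 12.7 and 24.9 ± 16.7 TPM, and Ass1 had 30.4 ± 18.6 and 0.970 ± 1.01 TPM. Slc7a1 at 23.3 and Acod1 at 21.3 ± 18.5 TPM came next in phagocytosis libraries, and Acod1 had 0.430 ± 0.690 TPM in controls. Odc1 had 16.8 ± 10.8 and 12.99 ± 4.28 TPM, Arg1 9.13 ± 15.0 and 2.32 ± 2.81, Slc7a2 1.06 ± 0.747 and 1.32 ± 1.01, and Nos2 0.176 ± 0.274 and 0.521 ± 1.47 TPM. In phagocytosis libraries neighbours in the order from Asl to Odc1 lay within 1 SD of one another. In controls Sat1 and Srm stood apart, Asl, Odc1 and Slc7a1 followed within 1 SD of their neighbours, and Acod1, Ass1, Arg1, Slc7a2 and Nos2 were all below 3 TPM on average.

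The state difference of Sat1 in CPM was much smaller in mean TPM. The TPM lack the TMM scaling of the CPM, so the 2 scales differ in more than transcript length. With length-scaled counts under TMM the log2 difference of Sat1 was -0.44, beside -0.57 in the main fit. How much of the gap between the scales comes from either was not tested. The reads of Sat1 were then followed by transcript. Sat1 lies on the minus strand of the X chromosome and has 7 annotated transcripts, of which 2 are protein coding. Among the others, most reads went to a transcript annotated as a retained intron, whose first exon opens with 770 bases of an intron that the main coding transcript removes and runs on into a 102-base exon that both share. The junction of the retained intron (last 60 bases, lower case) with that exon (first 40 bases, capitals) is shown because reads across it set the retained-intron transcript apart from spliced ones.
Sat1 retained intron (GRCm38, chrX:155214095-155214194, minus strand): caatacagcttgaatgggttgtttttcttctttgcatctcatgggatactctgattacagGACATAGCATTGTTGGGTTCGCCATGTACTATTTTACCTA

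Reads on the protein-coding Sat1 transcripts came to 95.9, 155 and 201.4 CPM as lowest, median and highest in phagocytosis libraries, against 136, 175 and 225 CPM in controls, and the states overlapped. Reads on the retained-intron transcript came to 32.9, 97.9 and 208 CPM in phagocytosis libraries, against 159, 222 and 329 CPM in controls, a wider gap. Transcripts not annotated as coding held 46.1% ± 9.40 of Sat1 reads in phagocytosis libraries (SD, n = 16) and 57.2% ± 6.51 in controls (SD, n = 8), a difference of -11.1 percentage points. The values ran from 27.3 to 57.5% in phagocytosis libraries and from 48.0 to 67.6% in controls. The division of reads in shared exons among transcripts was the quantifier's.

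By group, the share on transcripts not coding was 50.6% in female NL4-/- phagocytosis and 49.4% in female NL4-/- control libraries. In female WT it was 37.6% in phagocytosis and 58.5% in control libraries. In male NL4-/- it was 49.6% in phagocytosis and 60.6% in control libraries, and in male WT 46.6% and 60.1% in that order. Female NL4-/- mice thus gave no lower mean share in phagocytosis libraries, where the other 3 groups did. That rests on 2 controls, at 48.0 and 50.9%, the first of them satellite-rich. The 4 female NL4-/- phagocytosis libraries ran from 38.0 to 57.5%. On the retained-intron transcript alone, female NL4-/- had 44.8% in phagocytosis and 45.6% in control libraries. Without the 3 controls above 20% satellite reads the difference over all groups was -9.69 points. Over all protein-coding genes the share of reads on transcripts not coding was 12.6% in both states. Among 2199 genes with at least 20 reads in every library and with such transcripts, the median difference was -0.31 points, 57.1% of the genes were lower in phagocytosis libraries, and 93 were at or below the value of Sat1. Of the other genes described here with at least 20 reads in 3 or more libraries of each state, Slc7a1 had 16.7% in phagocytosis libraries and 10.5% in controls, Asl 14.9% and 12.3%, and Srm 1.80% and 2.59%.

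**Figure D3:**
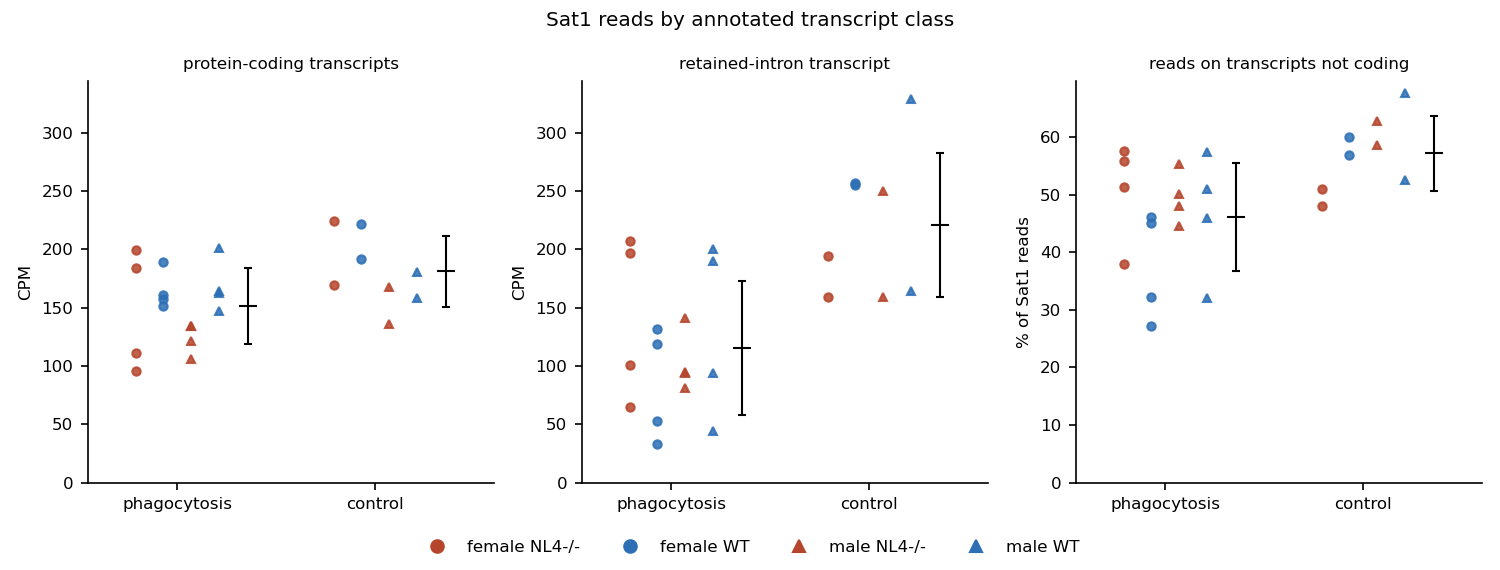
Sat1 reads in each library, as CPM on protein-coding transcripts, CPM on the retained-intron transcript, and percent of Sat1 reads on transcripts not annotated as coding, with phagocytosis left of control. Points are libraries and the black bars are the mean and SD. The protein-coding panel overlaps broadly, while the retained-intron transcript has a mean of 115 CPM in phagocytosis libraries and 221 CPM in controls.

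The genotype comparisons were tested within each sex and state. Whether earlier genotype results played a part in the choice of the genes is not known. NL4-/- against WT gave 0 called genes (0% of 9803) in each of the 4 settings by edgeR, with 510 genes at an unadjusted p under 0.05 in female phagocytosis, 210 in female control, 465 in male phagocytosis and 328 in male control libraries. DESeq2 called 3, 4, 0 and 5 genes in the same order. For the 9 genes tested here the edgeR adjusted p ran from 0.532 to 1.

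The transporter Slc7a1 had the lowest adjusted p. In male phagocytosis libraries it had 105, 134, 68.6 and 92.9 CPM in NL4-/- mice, against 60.8, 28.2, 44.7 and 32.3 CPM in WT mice. The genotypes did not overlap, as for 2.5% of the genes tested, and the difference was 1.26 ± 0.28 (log2, SE), with an unadjusted p of 0.00011 and an adjusted p of 0.532 by edgeR's quasi-likelihood test. It therefore did not pass over all genes. The adjusted p was 0.0982 with DESeq2 and 0.0108 with no filter on low counts, the 1 alternative in which the gene was called, and it ran from 0.130 to 1 with 1 library left out. In female phagocytosis libraries Slc7a1 had 122, 104, 75.4 and 55.7 CPM in NL4-/- mice, against 77.2, 71.6, 79.2 and 88.2 CPM in WT mice, a difference of 0.15 ± 0.27 with overlap. The genotype difference itself differed between the sexes by -1.11 ± 0.39 (female minus male, unadjusted p = 0.0084, adjusted p = 0.977 by edgeR) and did not pass either. In male controls Slc7a1 had 68.0 and 83.9 CPM in NL4-/- mice, against 29.9 and 71.2 CPM in WT mice.

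In phagocytosis libraries Ass1 was the other gene with separate genotypes, in females. Female phagocytosis libraries had 51.2, 38.6, 22.0 and 5.93 CPM in NL4-/- mice, against 74.2, 110, 113 and 68.9 CPM in WT mice, without overlap, as for 3.29% of the genes tested. The difference was -1.68 ± 0.55 (log2, SE), with an unadjusted p of 0.0066 and an adjusted p of 0.938 by edgeR, so it did not pass. It was -0.99 with libraries numbered 1 and 2 and -2.70 with those numbered 3 and 4. In male phagocytosis libraries Ass1 had 63.4, 26.0, 46.6 and 81.0 CPM in NL4-/- mice, against 86.6, 28.2, 128 and 24.5 CPM in WT mice, with wide overlap. In female controls, Slc7a2 had 24.7 and 12.3 CPM in NL4-/- mice, against 2.32 and 1.23 CPM in WT mice, from 20 and 3 reads in all, and its adjusted p was 1 (unadjusted 0.011, edgeR).

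**Figure D4:**
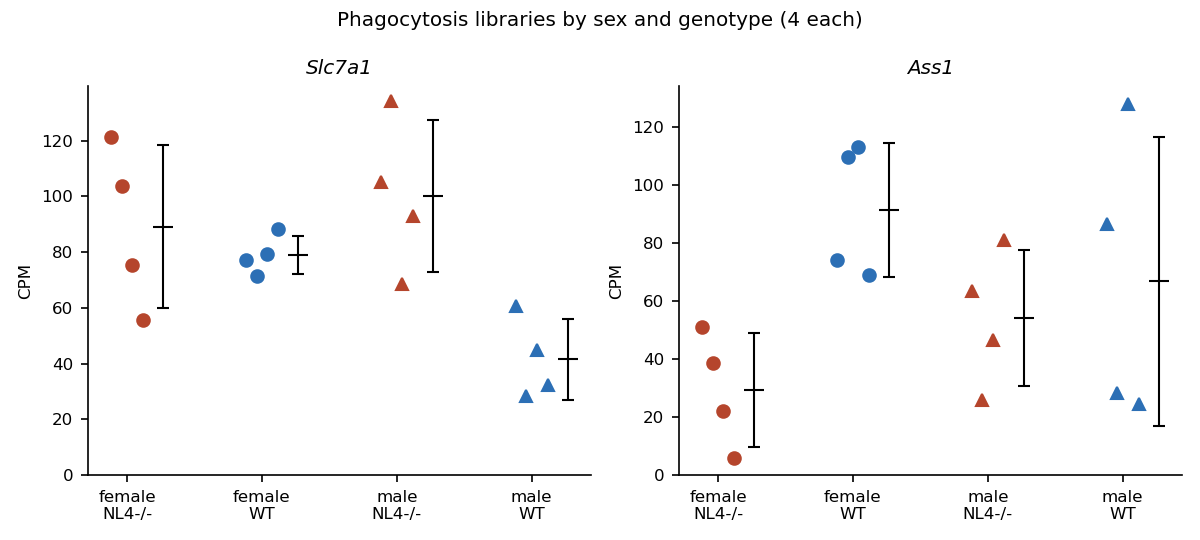
CPM of Slc7a1 and Ass1 in the 16 phagocytosis libraries, 4 per sex and genotype, with NL4-/- left of WT in each sex. Points are libraries and the black bars are the mean and SD. Slc7a1 is separate between the genotypes in males and Ass1 in females, and neither passed the test over all genes.

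Between the sexes, female minus male phagocytosis libraries gave 4 called genes (0.0408%, 1 higher and 3 lower in females) by edgeR, none of them among these genes. The tests of whether the state difference itself depended on genotype or on sex gave 0 calls each, with 276 and 190 genes at an unadjusted p under 0.05, and DESeq2 called 1 in each. The test of whether the genotype difference in phagocytosis libraries depended on sex gave 0 calls, with 467 genes at an unadjusted p under 0.05 and 2 calls by DESeq2.

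Within the phagocytosis libraries 1 of 36 pairs of these genes passed the test of correlation. Over the 16 libraries, Slc7a1 and Srm correlated in log2 CPM with a Pearson coefficient r of 0.725. Its permutation p was 0.0013, or 0.0464 once adjusted over 36 pairs. Spearman's rho was 0.729, with a permutation p of 0.0018 that became 0.0634 after the same adjustment. Leaving out the 2 extreme values of Slc7a1, measured from its median, gave an r of 0.663, and r was 0.792 among libraries numbered 1 and 2 and 0.599 among those numbered 3 and 4. By rho 0 pairs passed. With 1 library left out, r stayed between 0.665 and 0.774, the adjusted p ran from 0.0342 to 0.118, and the pair passed in 5 of the 16 fits. Sex and genotype were not removed, here or for the pairs below, so differences between those groups enter r and its permutation p. The libraries share a normalisation and the counted depth, and what else they share was not tested.

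Slc7a1 and Odc1 had an r of 0.639 (permutation p = 0.0073, adjusted p = 0.0969) and 0.521 without the 2 farthest libraries. Odc1 and Srm had an r of 0.578 (permutation p = 0.020, adjusted p = 0.144), with 0.456 and 0.350 within the 2 numbered sets. Sat1 had negative values with Srm (r = -0.628, permutation p = 0.010, adjusted p = 0.0969), Ass1 (-0.611, permutation p = 0.011, adjusted p = 0.0969), Slc7a1 (-0.547) and Odc1 (-0.545), none past the threshold. The signs of all these pairs were the same in both numbered sets. Acod1 had r with the others between -0.233 (Sat1) and 0.311 (Arg1).

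Among the 5 genes most like Srm over the 16 phagocytosis libraries, out of 8383 genes, were Hsp90ab1 (r = 0.863), Slc1a5 (0.852), Ptger4 (0.847) and Slc16a10 (0.831). Hsp90ab1 is a constitutive heat shock protein, Slc1a5 a glutamine transporter, Ptger4 a prostaglandin E receptor and Slc16a10 an aromatic amino acid transporter. They were picked as the highest and are a description.

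**Figure D5:**
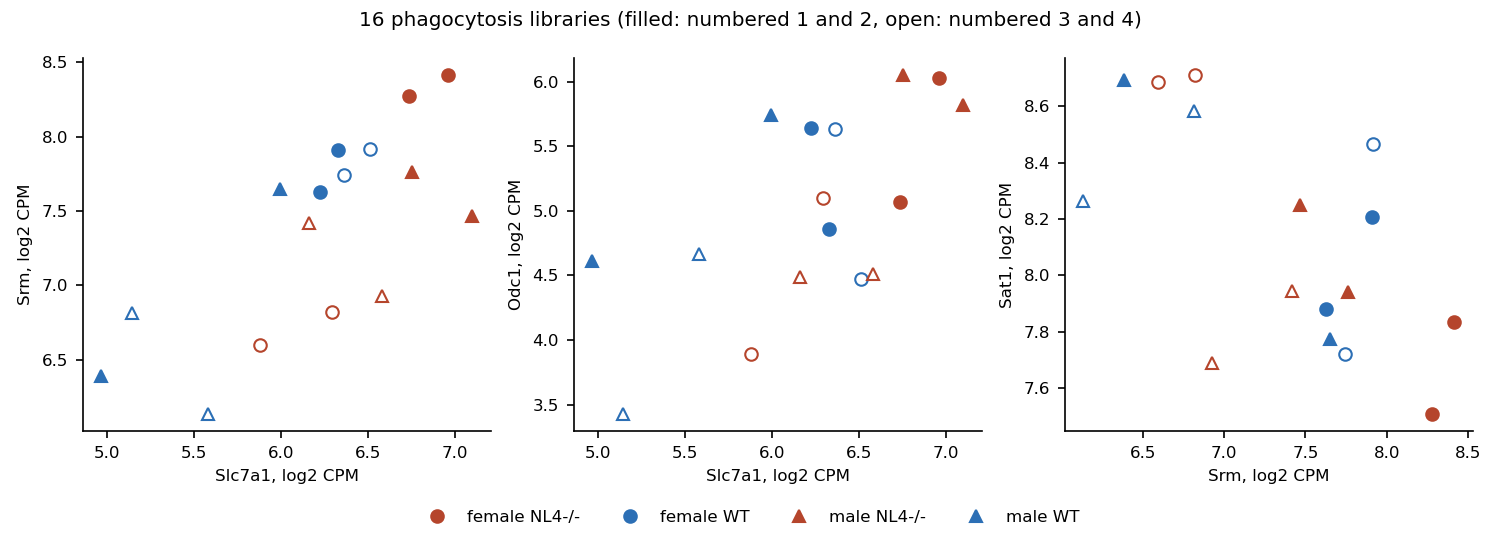
Log2 CPM of Srm against Slc7a1, Odc1 against Slc7a1, and Sat1 against Srm in the 16 phagocytosis libraries, filled for libraries numbered 1 and 2 and open for those numbered 3 and 4. Colour gives genotype and shape gives sex. The first pair has an r of 0.725 and passed the test, and the last has an r of -0.628 and did not.

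The other genes of the pathway were tested between the states over all 24 libraries. These lists, too, were chosen with earlier results of these libraries known, so their counts and p-values are not independent evidence of a direction, and they stand beside the 13.6% of all genes that were called. Of 24 other genes of arginine, urea cycle and nitric oxide metabolism 14 were tested, and 3 rose and 0 fell in phagocytosis libraries, with a median log2 difference of -0.10 beside -0.01 over all genes tested. Got1, the cytosolic aspartate aminotransferase, averaged 63.9 ± 15.8 CPM in phagocytosis libraries and 36.4 ± 12.1 CPM in controls (log2 difference 0.82 ± 0.19, adjusted p = 0.0035, edgeR). Slc6a8, a creatine transporter, rose by 1.72 ± 0.56 (adjusted p = 0.029) and Got2, the mitochondrial aspartate aminotransferase, by 0.39 ± 0.13 (adjusted p = 0.0498). Of these, Slc6a8 passed the filter on low counts through phagocytosis libraries, which its p-value does not take into account. Slc6a8 was called in 20 and Got2 in 13 of 24 fits with 1 library left out, and 1 gene of the list, Got1, was called without the 3 satellite-rich controls. Arg2, the mitochondrial arginase, had 22 reads in phagocytosis libraries and 4 in controls, and did not pass the filter. Of 7 genes that make or handle tetrahydrobiopterin, the cofactor of nitric oxide synthases, 3 were tested and 0 passed. Pts, which acts early in its synthesis, had 38.3 ± 13.1 CPM in phagocytosis libraries and 53.96 ± 12.98 CPM in controls (adjusted p = 0.073), and Spr, sepiapterin reductase, had 31.5 ± 10.3 and 22.9 ± 9.21 CPM in that order (adjusted p = 0.220). Gch1, the first enzyme of that route, had 90 and 11 reads in that order and did not pass the filter.

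Of 23 other polyamine genes 20 were tested, and 1 rose and 0 fell (median 0.14). The riser was Eif5a, the translation factor whose hypusine residue is made from spermidine, with 649 ± 128 CPM in phagocytosis libraries and 453 ± 51.0 CPM in controls (0.51 ± 0.11, adjusted p = 0.0029, edgeR). Its adjusted p was 0.072 without the 3 satellite-rich controls, where the list had 0 calls. Smox, spermine oxidase, had 2212 reads in phagocytosis libraries and 837 in controls, with a log2 difference of 0.15 ± 0.11 (adjusted p = 0.421). Amd1 and Amd2, which encode adenosylmethionine decarboxylase, are near-identical copies, and their reads could be split between them.

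Of 30 genes of the citric acid cycle and itaconate handling 29 were tested, and 3 rose and 0 fell (median 0.07). Slc13a3, a plasma membrane carrier of dicarboxylates, averaged 230 ± 131 CPM in phagocytosis libraries and 64.9 ± 26.7 CPM in controls (1.91 ± 0.43, adjusted p = 0.0070, edgeR). Mdh2, mitochondrial malate dehydrogenase, rose by 0.59 ± 0.12 (adjusted p = 0.0015) and Sdhb, a subunit of succinate dehydrogenase, the enzyme that itaconate inhibits, by 0.36 ± 0.11 (adjusted p = 0.025). Without the 3 satellite-rich controls the list had 0 calls, and the adjusted p of Slc13a3 was 0.120. Clybl, which acts in the breakdown of itaconate, had 41 reads in phagocytosis libraries and 21 in controls and did not pass the filter.

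Of 16 other amino acid transporters 14 were tested, and 3 rose and 1 fell. Slc15a3, a lysosomal carrier of histidine and peptides, had 278 ± 70.1 CPM in phagocytosis libraries and 152 ± 27.8 CPM in controls (0.88 ± 0.15, adjusted p = 0.00023, edgeR). Slc3a2, the heavy chain that partners several Slc7 light chains, rose by 0.58 ± 0.12 (adjusted p = 0.0011), and Slc7a11, the cystine and glutamate exchanger, by 1.30 ± 0.39 (adjusted p = 0.024). Slc36a1, a lysosomal exporter of small amino acids, fell by 0.51 on the log2 scale (SE 0.14, adjusted p = 0.012). Slc7a11 and Slc36a1 were each called in 20 of 24 fits with 1 library left out, and 2 genes of the list, Slc15a3 and Slc36a1, were called without the satellite-rich controls.

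Itaconate is known to activate the NRF2 pathway by modifying Keap1. Of 20 genes of that pathway 19 were tested, and 8 rose and 0 fell, with a median log2 difference of 0.47. Slc7a11 is in this list as well as in that of the transporters. Whether itaconate has a part in these differences was not tested. Hmox1, haem oxygenase 1, averaged 940 ± 430 CPM in phagocytosis libraries and 92.0 ± 47.7 CPM in controls (3.40 ± 0.27, adjusted p = 7.9e-08, edgeR). Prdx1, a peroxiredoxin, rose by 0.99 ± 0.14 (adjusted p = 8.1e-06), Txn1, thioredoxin, by 1.19 ± 0.19 (adjusted p = 8.0e-05), and Sqstm1, an autophagy receptor, by 1.25 ± 0.21 (adjusted p = 0.00032). The 4 were called in all 24 fits with 1 library left out and without the satellite-rich controls, where the list had 6 calls.

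Of 20 transcription factors of macrophage activation 19 were tested, and 3 rose and 1 fell. Irf7 averaged 189 ± 155 CPM in phagocytosis libraries and 21.2 ± 15.0 CPM in controls (3.23 ± 0.60, adjusted p = 0.0019, edgeR). Cebpb had 18.2 ± 12.3 and 3.05 ± 2.35 CPM in that order (2.66 ± 0.61, adjusted p = 0.0033), from 200 and 14 reads. It passed the filter on low counts through phagocytosis libraries, which its p-value does not take into account. Nfkb1 fell by 0.40 on the log2 scale (SE 0.12, adjusted p = 0.023, edgeR), and it was called in 19 of 24 fits with 1 library left out.

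Of 16 classical activation genes 12 were tested, and 5 rose and 1 fell. Ccl5, a chemokine, averaged 657 ± 798 CPM in phagocytosis libraries and 33.7 ± 50.5 CPM in controls (4.79 ± 0.83, adjusted p = 0.0012, edgeR). Tnf rose by 1.09 ± 0.27 (adjusted p = 0.0099) and Ptgs2, prostaglandin synthase 2, had 186 reads in phagocytosis libraries and 7 in controls (adjusted p = 0.0067). Ptgs2 passed the filter on low counts through phagocytosis libraries, and its fit gave no usable SE. Il1a fell by 0.83 on the log2 scale (SE 0.19, adjusted p = 0.0035), and Il1b had a log2 difference of 1.02 ± 0.42 (adjusted p = 0.118). Il6 had 20 reads in phagocytosis libraries and 15 in controls and did not pass the filter. Without the satellite-rich controls 2 genes of the list, Ccl5 and Tnf, were called.

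Of 16 alternative activation genes 6 were tested, and 2 rose and 0 fell. Clec7a, the beta-glucan receptor, averaged 23.96 ± 14.6 CPM in phagocytosis libraries and 7.70 ± 4.42 CPM in controls (1.74 ± 0.47, adjusted p = 0.013, edgeR), and Mrc1, the mannose receptor, had 111 and 20 reads in that order (adjusted p = 0.033). The fit gave no usable SE for Mrc1, which passed the filter on low counts through phagocytosis libraries. Mrc1 is also a marker of border-associated macrophages. Of their 12 markers all 12 had a higher mean in phagocytosis libraries, and 6 of 7 tested rose, beside 8.41% of all genes tested. Their part in the result was not tested. Retnla, a gene of alternative activation, had 0 reads in all 24 libraries, and 0 genes of the list were called without the satellite-rich controls.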

How the data were processed

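The authors' files hold lengths, expected counts of reads (NumReads) and TPM for each of 116945 transcripts in 24 libraries, per the file headers. The deposited expected counts are raw estimates with decimals. The deposited TPM correct for transcript length and sum to the same total in each library. The quantifier and its version: not given in the sources used here. Transcripts were matched to GENCODE vM21 (GRCm38), 116023 of them, and the unmatched held 0.274 to 0.379% of a library's reads. Expected counts were summed per gene and rounded, which gave 35519 genes, and TPM were summed per gene.

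Tests used edgeR 4.0.16 (quasi-likelihood F test, robust) with TMM and its expression filter (minimum count 10), which left 9803 genes, in 1 fit of 24 libraries and 8 group means without covariates. The common dispersion was 0.0812. P-values are two-sided and adjusted by Benjamini-Hochberg over all genes tested, with a threshold of 0.05. DESeq2 1.42.0, other scalings and filters, length-scaled counts, a replicate block and fits that left libraries out were alternatives. Log2 CPM used a prior count of 2, and permutation tests of correlations drew 100000 resamples. Scripts were tested on simulated data.

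The genes and the lists were chosen with earlier results of these data known. All 10 are named, and from each list the 4 genes past the threshold ranked first by adjusted p, or the first 2 where none passed. Most like Acod1 and Srm are the 5 annotated genes with the largest r among those with at least 10 CPM. Srm was taken as the enzyme or transporter other than Sat1 and Odc1 with the largest mean CPM. Further genes were looked up outside the rule. They were Arg2, Gch1, Smox, Amd1, Amd2, Clybl, Il1b, Retnla, Chil3, Il6, Nos1, Nos3, Cps1 and Otc. Some genes that these rules name are not reported here. A permutation test of transcript shares between the states was planned and is not reported, because that contrast was used to choose the genes.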

Additional observations from a re-analysis of the deposited data

Results flagged for a closer look

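In groups of 4 phagocytosis libraries, 3 values stood apart from the rest of their group by Dixon's criterion, of 40 groups tested, and chance alone marks about 1 group in 20. Arg1 had 9.62 CPM in female WT phagocytosis 4, where the other 3 libraries had 0 to 1.00 CPM. Arg1 had 110 CPM in male WT phagocytosis 2, where the other 3 had 1.13 to 4.47 CPM, and this library also had the most monocyte marker RNA. Nos2 had 1.81 CPM, which is 1 read, in male NL4-/- phagocytosis 1, where the other 3 had 0. With 3 libraries at 0 any single read meets the criterion, so the rate of 1 in 20 does not apply to it.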

How the results depend on the processing

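The 1332 genes called between the states became 884 with length-scaled counts, 782 with phagocytosis libraries numbered 3 and 4 only, 1772 with those numbered 1 and 2 only, 410 without control libraries over 20% satellite, and 781 to 1508 with 1 library left out (781 without female WT control 2). Of the 10 genes 4 were called, against 2 without the satellite-rich controls and 3 to 4 with 1 library left out. These counts of a contrast used in the choice are not read as stability. The fit without the satellite-rich controls kept 1 control library each in female NL4-/-, male WT and male NL4-/-, so it also had fewer controls to test with. DESeq2 called 3, 4 and 5 genes for NL4-/- minus WT in female phagocytosis, female control and male control libraries, 7 for female minus male, 2 for the difference of the genotype effect between sexes, and 1 for each dependence of the state effect on genotype and on sex. With no filter on low counts these were 19, 11, 8, 36, 5, 3 and 2, and 7 in male phagocytosis, 1 of them Slc7a1. Length-scaled counts gave 1 call in female control and 2 for female minus male. Numbers 3 and 4 only gave 4, 4, 1 and 1 calls for genotype in female phagocytosis, female control, male phagocytosis and male control, 2 for female minus male and 1 for the genotype effect between sexes. Numbers 1 and 2 only gave 1 call in female control, male phagocytosis and male control and for the genotype effect between sexes, 3 for state by genotype and 2 for state by sex. Without the satellite-rich controls female control had 1 call. With 1 library left out, calls ran from 0 to 1 in female phagocytosis, 0 to 2 in female control, 0 to 2 in male control, and 0 to 1 for state by genotype and state by sex. The correlated pairs past the threshold ran from 0 to 2. The cause was not tested for any of these.

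Deviations from the group mean had a median correlation of 0.004 between libraries with the same number (68 pairs, 6 over 0.1). For other pairs the median was -0.0005, with 14 of 180 pairs over 0.1. This gave no sign of pairing by number but cannot exclude it, since in groups of 2 the deviations are equal and opposite. It does not compare numbers 1 and 2 with numbers 3 and 4. With the replicate block 1646 genes were called between the states, 5 for female minus male and 0 in the other 7 comparisons. The Sat1 transcript share differed by -12.7 points with numbers 1 and 2 only, by -9.42 with 3 and 4 only, by -9.69 without the satellite-rich controls, and by -12.4 to -9.57 with 1 library left out, alternatives chosen after seeing the data except the last. Totals of 421107 to 1013797 reads limit what can be said of Nos2, Arg1 and Slc7a2.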
